A study of Mus musculus with 4 samples.

Results

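The genes described here are 37 T and B lymphocyte genes of the mouse, chosen by name from the 27657 genes and transcripts on the arrays. Of these, 20 were classed as T cell genes, 9 as B cell genes and 8 as pan-leukocyte genes, not specific to T or B cells. The receptor assembly genes Rag1, Rag2 and Dntt were counted with the T cell genes, though B cells also assemble receptors. The array files named 34 of them by their current symbol, and the other 3 (Cd27, Ikzf1 and Ikzf3) stood under older names and were matched through their RefSeq transcript. Together they were covered by 59 of 41174 probes.

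RNA was measured on 4 one-colour microarrays, 3 of them from neural progenitor cell (NPC) lines and 1 from a pool of tissues. The lines were NS21 (strain 129/Ola, grown from embryonic stem cell line 21), NS195R (strain 129/Sv, from line 195R) and NSEB5-2C (strain 129/Ola, from line EB5). The pool is titled Mixture and came from Swiss Webster mice. It combined the same mass of RNA from day 11 embryo and from 6 organs, namely thymus and spleen, liver and lung, and heart and kidney. The study set the lines against Mixture to pick transcription factors that were higher in neural progenitors. The lines and Mixture differ in strain as well as in cell type, so the contributions of strain and cell type to a ratio cannot be told apart. Each line was 1 array, so the spread within NPC is a spread between lines that includes technical error. One label of the Mixture sample names an NPC line treated with Dox, whereas its title, cell type and strain name the pool.

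Lymphocytes recognise antigen through receptors assembled by DNA recombination. In T cells the receptor signals through the CD3 chains, and the kinases LCK and ZAP-70 and the adaptor LAT pass the signal on. In B cells the receptor signals through CD79A and CD79B, with the kinase BLK and the adaptor BLNK downstream. The thymus is packed with developing T cells that are recombining their receptor genes, and the spleen holds mature B and T cells, while heart, kidney, liver and neural tissue are known to hold few of either.

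Signals are given on a scale on which the 75th percentile of each array is 100. On the NPC arrays 23983 to 25690 of the 43379 spots that are no controls stood well above background, against 26840 for Mixture, and saturated spots numbered 0 on every array. For the 16 of the 37 genes that had several probes, the brightest probe on average stood for the gene and is called the kept probe. That mean covers more NPC arrays than Mixture arrays, so it can favour a probe with signal in the lines. A single bright spot in a line also raises it. The lines were compared with Mixture with limma over 19819 genes, with p-values adjusted by the Benjamini-Hochberg method and a threshold of 0.05. Where every line was dim, that is, not well above background, the words "at least" mark a fold as a bound, in which each dim value was raised to the lowest well measured signal of its array. The number of arrays limits the precision throughout. Of 12 neural progenitor markers, 9 were well above background in NSEB5-2C, 12 in NS195R and 7 in NS21, against 10 in Mixture. The marker genes Fabp7, Olig2 and Hes5 were missing in NS21 and in NSEB5-2C, and Sox2 was also missing in NS21.

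Lymphocyte genes were well measured in Mixture and mostly at background in the NPC lines. On the kept probe, 9 of the 37 genes were well above background in NSEB5-2C, 9 in NS195R and 7 in NS21, against 35 in Mixture. The same was true of 54.1% of all genes in NSEB5-2C, 57.7% in NS195R and 55.6% in NS21, against 62.0% in Mixture. The plot of the kept probes by array shows that the NPC values of most lymphocyte genes lay below 3, while the Mixture values spread over a wide range. With limma, 25 of the 37 genes were lower in the NPC lines and 0 were higher, where 8.91% of all tested genes were lower and 0.944% were higher. At an unadjusted p under 0.05, 29 were lower and 0 higher, beside 15.4% of all tested genes that were lower. Without any 1 of NS21, NS195R or NSEB5-2C the fit keeps 1 residual degree of freedom, and 0 of all tested genes, these 37 included, then passed the adjusted test. In bulk RNA, fewer cells of a type and less RNA per cell cannot be told apart.

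**Figure D1:**
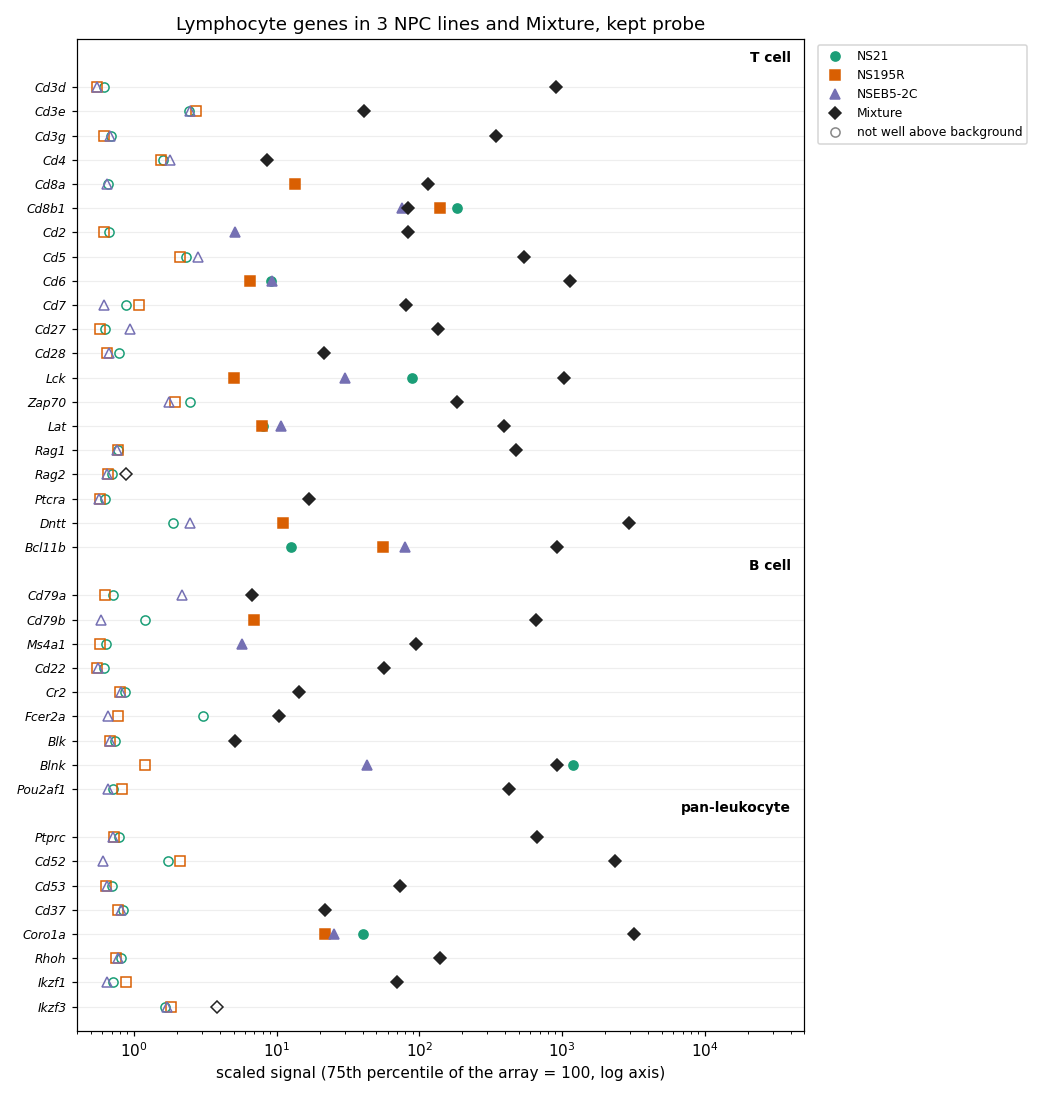
Scaled signal of the kept probe of each lymphocyte gene (horizontal log axis, 75th percentile of the array = 100) on the NS21, NS195R, NSEB5-2C and Mixture arrays, with open symbols where the probe was not well above background. Of the 37 genes, 9 were well above background in NSEB5-2C, 9 in NS195R and 7 in NS21, against 35 in Mixture.

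Only 35 of the 37 genes passed the filter on dim probes, because the kept probes of Rag2 and Ikzf3 were dim on every array. Of the 35, 23 were well above background in Mixture and in no line. Such genes passed the filter through Mixture alone and had to be lower, so their count is a description. Their standard errors and p-values, here and below, rest on the small spread of background readings in the lines and do not test the direction. Of these 23 genes, 21 were called lower, beside 74.8% of all 2035 tested genes with the same detection pattern. Another 6 genes were well above background on all 4 arrays on their kept probe. Of them 3 (Cd6, Lat and Coro1a) were called lower, beside 0.99% of the 12728 genes so measured. With the test restricted to those 12728 genes, 0 genes were called, these 3 included. The other 6 genes were measured in Mixture and in 1 or more lines but not in all, and 1 of them, Dntt, was called.

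The CD3 chains of the T cell receptor complex fell in the NPC lines. Cd3d, which encodes the delta chain, had signals of 0.554 in NSEB5-2C, 0.553 in NS195R and 0.612 in NS21, against 910.4 in Mixture. No line was well above background, and the NPC lines were at least 322-fold lower (log2 difference -10.63, SE 0.34, limma adjusted p = 0.00846). That SE describes background readings, as for every gene measured in Mixture alone. The epsilon and gamma chains showed the same separation of the lines from Mixture. Cd3e had 2.49 in NSEB5-2C, 2.71 in NS195R and 2.42 in NS21, against 40.9 in Mixture, and was at least 14.5-fold lower (limma adjusted p = 0.0167). A second Cd3e probe was dim on every array, with 3.70 in Mixture. Cd3g had 0.682, 0.620 and 0.690 in the same lines, against 346 in Mixture, and was at least 122-fold lower (limma adjusted p = 0.00846). All 3 genes lie together on chromosome 9, where the start sites of Cd3g and Cd3d are 1355 bases apart on opposite strands.

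The promoter sequences of the 3 CD3 genes are shown because the genes are neighbours that were low together in every line. Each holds the 250 bases before a transcript start, read in the direction of the gene from RefSeq on GRCm38.p6, at chr9:44980432-44980681 for Cd3g (minus strand), chr9:44981536-44981785 for Cd3d (plus strand) and chr9:45009612-45009861 for Cd3e (minus strand). Capitals mark an E-box (CAGGTG), an ETS motif (CAGGAAG) or a GC box (GGGCGG) on either strand.
Cd3g: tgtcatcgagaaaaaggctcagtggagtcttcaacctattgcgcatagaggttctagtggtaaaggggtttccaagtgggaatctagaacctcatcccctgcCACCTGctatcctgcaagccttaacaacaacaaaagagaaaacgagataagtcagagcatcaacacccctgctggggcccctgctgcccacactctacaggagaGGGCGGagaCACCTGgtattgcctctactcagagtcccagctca
Cd3d: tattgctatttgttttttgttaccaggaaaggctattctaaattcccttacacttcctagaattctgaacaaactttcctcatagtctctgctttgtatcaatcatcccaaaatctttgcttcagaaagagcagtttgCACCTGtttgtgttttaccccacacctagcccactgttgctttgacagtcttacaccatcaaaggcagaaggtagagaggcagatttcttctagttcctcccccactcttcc
Cd3e: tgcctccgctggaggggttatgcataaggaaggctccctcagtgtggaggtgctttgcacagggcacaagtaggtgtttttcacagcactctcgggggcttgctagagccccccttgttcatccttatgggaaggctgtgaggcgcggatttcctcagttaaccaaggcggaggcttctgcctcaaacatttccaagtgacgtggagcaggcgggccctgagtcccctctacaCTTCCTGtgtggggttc
Cd3g held E-boxes that begin 148 and 35 bases before the start, with a GC box 44 bases before it. Cd3d held an E-box 112 bases before its start, and Cd3e an ETS motif 17 bases before its start. A match is a description of the letters and not of binding.

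Among the coreceptors, which bind MHC molecules beside the T cell receptor, Cd4 passed the test by a narrow margin and the kept probes of Cd8a and Cd8b1 did not. Cd4 had 1.80 in NSEB5-2C, 1.55 in NS195R and 1.60 in NS21, none of them well above background, against 8.51 in Mixture. It was at least 3.01-fold lower (log2 difference -2.37, limma adjusted p = 0.0484). The call was lost under normexp background correction, quantile and median scaling, an intensity trend in the variance prior, and when spots with outlier flags were kept.

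Cd8a, which encodes the alpha chain of CD8, was held up by 1 line on its kept probe. That probe had 0.645 in NSEB5-2C, 13.4 in NS195R and 0.657 in NS21, against 115 in Mixture (log2 difference -6.02, SE 2.28, limma adjusted p = 0.192). Only the NS195R value was well above background, and it still lay 8.63-fold below Mixture. That value also counts in the mean by which the probe was kept. The other probes of Cd8a were at background in all 3 lines. A probe spotted 10 times averaged 0.709 in NSEB5-2C, 0.689 in NS195R and 0.750 in NS21, against 280.3 in Mixture, and was at least 99.0-fold lower. The third probe, with 958 in Mixture, was at least 338-fold lower. Both of these probes passed the limma test when every probe was tested on its own. Cd8a was called lower under normexp background correction (limma adjusted p = 0.00312), with quantile scaling (limma adjusted p = 0.00752) and with the mean of its probes (limma adjusted p = 0.0185).

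Cd8b1, which encodes the beta chain, was the 1 member whose kept probe did not lie below Mixture in the mean. That probe had 75.1 in NSEB5-2C, 139.9 in NS195R and 185 in NS21, against 83.4 in Mixture (log2 difference 0.58, SE 0.68, limma adjusted p = 0.619). NS21 and NS195R lay above Mixture and NSEB5-2C just below it. The array files place this probe on chromosome 5, whereas the RefSeq gene table places Cd8b1 on chromosome 6. Among 15818 kept probes with both chromosomes known, 27 lay on another chromosome than their gene.

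The other Cd8b1 probe, placed on chromosome 6, gave the opposite direction. It had 2.05 in NSEB5-2C, 0.551 in NS195R and 0.605 in NS21, none well above background, against 3830.3 in Mixture. The log2 difference was -12.09, or at least 1353-fold lower, with a limma adjusted p of 0.0160 among all probes and of 0.0147 to 0.0160 over the fits that used this probe. The plot of the genes with several probes shows this gap between the Cd8b1 probes beside the smaller gaps of the other genes. With the probe of highest Mixture signal taken for each lymphocyte gene, a choice made after these values were seen, 29 of the 37 genes were called lower instead of 25. That choice favours lower calls, because it picks probes by 1 side of the difference and was made for the lymphocyte genes only. Over single probes, 39 of the 53 tested probes of the lymphocyte genes were called lower, beside 7.88% of all tested probes. Of the 53, 38 were well above background in Mixture alone and had to be lower.

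**Figure D2:**
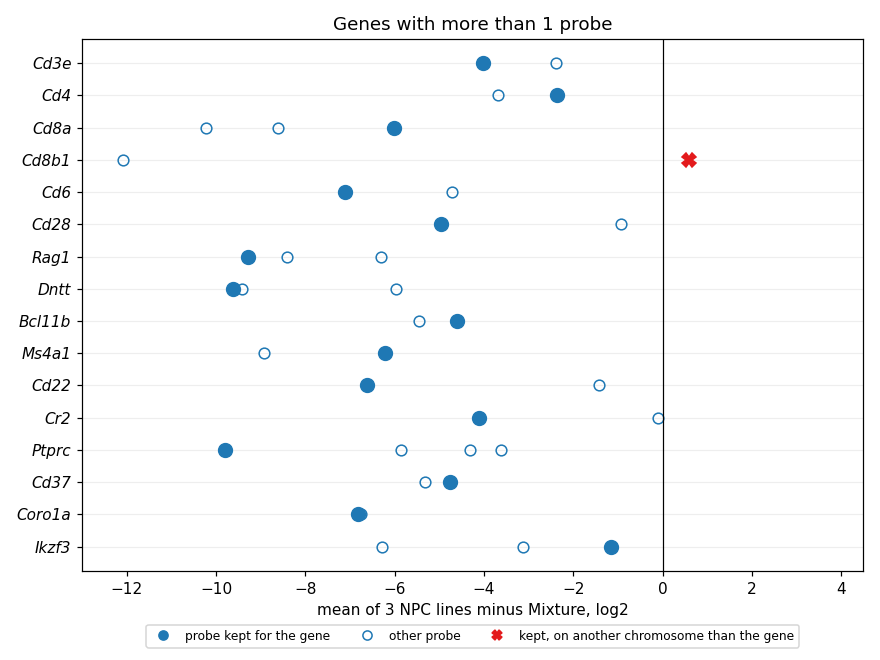
Difference of the mean of the 3 NPC lines from Mixture (log2, horizontal axis) for every probe of the 16 lymphocyte genes with more than 1 probe, filled for the kept probe. The kept probe of Cd8b1, at 0.58, is placed on another chromosome than its gene, and the other Cd8b1 probe stands at -12.09.

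The surface receptors that tune T cell activation fell in the NPC lines, apart from Cd2, which did not pass the test. Cd5, an inhibitory receptor gene, had 2.82 in NSEB5-2C, 2.09 in NS195R and 2.31 in NS21, against 540.3 in Mixture, and was at least 189-fold lower (limma adjusted p = 0.00859). On its kept probe Cd6, a relative of Cd5, was well above background on all 4 arrays. It had 9.32 in NSEB5-2C, 6.54 in NS195R and 9.11 in NS21, against 1130.0 in Mixture. The lines lay close together and far below Mixture. Cd6 was 138-fold lower (log2 difference -7.10, SE 0.42, limma adjusted p = 0.0101). Its second probe was well above background in Mixture only. That probe had 0.588 in NSEB5-2C, 0.589 in NS195R and 0.657 in NS21, against 16.1 in Mixture, and was at least 5.70-fold lower.

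The other receptors of this group were at background in every line. Cd7 had 0.616 in NSEB5-2C, 1.08 in NS195R and 0.882 in NS21, against 80.1 in Mixture, and was at least 28.3-fold lower (limma adjusted p = 0.0136). Cd27, a costimulatory receptor of the TNF receptor family, was at least 47.8-fold lower, with 0.582 to 0.938 in the lines and 135 in Mixture (limma adjusted p = 0.0105). Cd28, the receptor that gives the second signal of T cell activation, was at least 7.62-fold lower, with 0.645 to 0.788 in the lines and 21.6 in Mixture (limma adjusted p = 0.0128). A second Cd28 probe was dim on every array, with 1.51 in Mixture. Cd2, an adhesion receptor, differed in that 1 line stood apart. It had 5.10 in NSEB5-2C, 0.619 in NS195R and 0.666 in NS21, against 82.8 in Mixture (log2 difference -6.01, SE 1.58, limma adjusted p = 0.119). Only the NSEB5-2C value was well above background, 16.2-fold below Mixture. Under normexp background correction Cd2 was called lower (limma adjusted p = 0.0255).

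Of the proximal signalling genes, Zap70 and Lat fell, and Lck varied between the lines. Zap70, which encodes the kinase recruited to phosphorylated CD3 chains, had 1.76 in NSEB5-2C, 1.93 in NS195R and 2.49 in NS21, against 184 in Mixture, and was at least 65.2-fold lower (limma adjusted p = 0.0106). Lat, the membrane adaptor gene, had 10.7 in NSEB5-2C, 7.96 in NS195R and 8.0 in NS21, all well above background, against 390.0 in Mixture. It was 44.3-fold lower (log2 difference -5.47, SE 0.40, limma adjusted p = 0.0128).

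Lck, a kinase of the SRC family, was well above background on all 4 arrays. It had 30.3 in NSEB5-2C, 5.02 in NS195R and 89.2 in NS21, against 1031 in Mixture (log2 difference -5.44, SE 1.91, limma adjusted p = 0.173). All lines lay below Mixture, by 34.1-fold in NSEB5-2C, 205-fold in NS195R and 11.6-fold in NS21. NS21 was 17.8-fold above NS195R and 2.95-fold above NSEB5-2C.

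Of the genes of receptor assembly in thymocytes, Rag1, Ptcra and Dntt fell in the NPC lines, and Rag2 was dim on every array. Rag1, a subunit gene of the recombinase, had 0.760 in NSEB5-2C, 0.770 in NS195R and 0.773 in NS21, against 479 in Mixture, and was at least 169-fold lower (log2 difference -9.28, SE 0.34, limma adjusted p = 0.00846). Rag2, its partner, had only a probe spotted 10 times, with 0.650, 0.657 and 0.697 in the same lines and 0.881 in Mixture. No value of Rag2 was well above background, so it gives no direction.

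Ptcra, which encodes the pre-T cell receptor alpha chain, had 0.571 to 0.626 in the lines and 17.0 in Mixture, and was at least 6.0-fold lower (limma adjusted p = 0.0120). Its call was lost under normexp background correction. Dntt, the polymerase gene that adds untemplated bases at receptor gene joints, had 2.49 in NSEB5-2C, 11.0 in NS195R and 1.89 in NS21, against 2941 in Mixture. Its log2 difference was -9.62 (SE 1.27, limma adjusted p = 0.0387), and the call was lost without the filter on dim probes. Only the NS195R value was well above background, and it lay 266-fold below Mixture.

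Bcl11b, a zinc finger transcription factor gene that T cell commitment requires and that neurons also use, was measured in every line. It had 79.4 in NSEB5-2C, 55.3 in NS195R and 12.6 in NS21, against 925 in Mixture (log2 difference -4.60, SE 1.30, limma adjusted p = 0.131). All lines lay below Mixture, and NSEB5-2C was 6.30-fold and NS195R 4.39-fold above NS21. The second Bcl11b probe had 18.5 in NSEB5-2C, 15.5 in NS195R and 1.80 in NS21, against 355 in Mixture, and so put the lines in the same order. Of 8 neuron markers, 4 were well above background in NSEB5-2C, 7 in NS195R and 5 in NS21, against 8 in Mixture, and their part in the Bcl11b values was not tested.

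Of the 9 B cell genes, 4 fell in the NPC lines (Cd22, Cr2, Blk and Pou2af1) and 5 did not pass the test. These 4 were measured in Mixture alone and had to be lower. Cd79b, a signalling chain gene of the B cell receptor, had 0.588 in NSEB5-2C, 6.89 in NS195R and 1.20 in NS21, against 652 in Mixture (log2 difference -8.59, SE 1.67, limma adjusted p = 0.0792). Only the NS195R value was well above background, and all lines lay far below Mixture. Under normexp background correction Cd79b was called lower (limma adjusted p = 0.00508). Cd79a, the other chain gene, was dim in every line and low, though well above background, in Mixture, with 2.18 in NSEB5-2C, 0.624 in NS195R and 0.719 in NS21, against 6.69 in Mixture (log2 difference -2.75, SE 0.95, limma adjusted p = 0.169).

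The surface proteins of B cells differed in how firmly they could be called. Ms4a1, which encodes CD20, had on its kept probe 5.75 in NSEB5-2C, 0.580 in NS195R and 0.636 in NS21, against 95.4 in Mixture (log2 difference -6.21, SE 1.71, limma adjusted p = 0.126). NSEB5-2C alone was well above background. The other Ms4a1 probe was at background in all lines, with 0.551, 0.548 and 0.603 in the same order of the lines, against 275 in Mixture, and was at least 97.2-fold lower. It passed the limma test when every probe was tested on its own. Ms4a1 was also called lower under normexp background correction (limma adjusted p = 0.00384) and with the mean of its probes (limma adjusted p = 0.0275).

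Cd22, an inhibitory coreceptor gene, had 0.560 in NSEB5-2C, 0.554 in NS195R and 0.613 in NS21, against 56.6 in Mixture, and was at least 19.99-fold lower (limma adjusted p = 0.00876). A second Cd22 probe was dim on every array, with 1.76 in Mixture. Cr2, which encodes complement receptor CD21, had 0.811, 0.802 and 0.860 in the same lines, against 14.3 in Mixture, and was at least 5.04-fold lower (limma adjusted p = 0.0157). The Cr2 call was lost under normexp background correction and with the mean of its probes, and its second probe was dim on every array, with 0.801 in Mixture. Fcer2a, the low-affinity IgE receptor gene, had 0.654 in NSEB5-2C, 0.776 in NS195R and 3.04 in NS21, none well above background, against 10.5 in Mixture (log2 difference -3.18, SE 1.14, limma adjusted p = 0.178).

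Pou2af1, a coactivator gene of octamer-binding factors in B cells, was at background in every line. It had 0.655 in NSEB5-2C, 0.831 in NS195R and 0.714 in NS21, against 422 in Mixture, and was at least 149-fold lower (log2 difference -9.18, SE 0.37, limma adjusted p = 0.00846). Blk, a SRC family kinase gene, had 0.684, 0.675 and 0.742 in the same lines, against 5.11 in Mixture, and was at least 1.81-fold lower (limma adjusted p = 0.0315). Its call was lost under normexp background correction and median scaling.

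Blnk, the adaptor gene that links the kinase SYK to downstream enzymes in B cells, differed most between the lines among the 37 genes. It had 43.0 in NSEB5-2C, 1.21 in NS195R and 1202 in NS21, against 929.7 in Mixture (log2 difference -4.55, SE 4.47, limma adjusted p = 0.549). NS21 lay 1.29-fold above Mixture, NSEB5-2C lay 21.6-fold below it, and NS195R was not well above background, at least 339-fold below it. NS21 was therefore at least 438-fold above NS195R and 28.0-fold above NSEB5-2C. With 1 array per line this difference was not tested, and Blnk had a single probe and a single spot per array.

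The promoter of Blnk is shown because Blnk alone among the lymphocyte genes with a RefSeq window held an octamer motif (ATGCAAAT). The window covers chr19:40994222-40994471 on the minus strand of GRCm38.p6, before the transcript start. Capitals mark an ETS motif 203 bases before the start, an E-box 160 bases before it and the octamer 130 bases before it. The E-box and the octamer are both on the opposite strand of the gene.
Blnk: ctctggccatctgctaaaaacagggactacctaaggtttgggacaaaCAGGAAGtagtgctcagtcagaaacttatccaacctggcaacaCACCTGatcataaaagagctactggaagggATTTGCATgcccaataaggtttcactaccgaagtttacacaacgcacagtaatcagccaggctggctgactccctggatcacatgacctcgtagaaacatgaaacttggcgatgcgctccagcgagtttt
Of all 32851 RefSeq windows of this length, 1.60% held the octamer on either strand.

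The pan-leukocyte genes fell in the NPC lines in 7 of 7 tested cases, though 6 of these genes were measured in Mixture alone and had to be lower. Ptprc, which encodes the phosphatase CD45, had 0.719 in NSEB5-2C, 0.724 in NS195R and 0.788 in NS21, against 665 in Mixture, and was at least 235-fold lower (limma adjusted p = 0.00846). Its other probes, with Mixture values of 15.5, 41.9 and 7.81, were at least 5.49-fold, 14.8-fold and 2.76-fold lower. The first of these did not pass the limma test when every probe was tested on its own (limma adjusted p = 0.0524). Cd52, a small anchored glycoprotein gene, had 0.607 in NSEB5-2C, 2.10 in NS195R and 1.74 in NS21, against 2353 in Mixture, and was at least 831-fold lower (limma adjusted p = 0.0167). The tetraspanin genes Cd53 and Cd37 were also at background in every line. Cd53 had 0.636 to 0.699 in the lines and 72.7 in Mixture, and was at least 25.7-fold lower (limma adjusted p = 0.00864). Cd37 had 0.771 to 0.843 in the lines and 21.9 in Mixture, and was at least 7.75-fold lower (limma adjusted p = 0.0123).

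Coro1a, which encodes an actin-binding coronin abundant in leukocytes, was measured on all 4 arrays. It had 25.4 in NSEB5-2C, 21.9 in NS195R and 40.6 in NS21, against 3195 in Mixture, and was 113-fold lower (log2 difference -6.82, SE 0.53, limma adjusted p = 0.0143). Its second probe gave a log2 difference of -6.75, and the lines lay close together on both. Rhoh, a GTPase gene of blood cells, had 0.745 to 0.818 in the lines and 140.4 in Mixture, and was at least 49.6-fold lower (limma adjusted p = 0.00846).

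Of the Ikaros family of zinc finger transcription factors, Ikzf1 was at background in every line, with 0.648 in NSEB5-2C, 0.881 in NS195R and 0.713 in NS21, against 69.5 in Mixture. It was at least 24.5-fold lower (limma adjusted p = 0.0101). Ikzf3 was not tested on its kept probe, which had 1.71, 1.83 and 1.65 in the same lines and 3.84 in Mixture, none well above background. Its other probes were at least 18.6-fold and 2.50-fold lower, with Mixture values of 52.5 and 7.07, and both passed the limma test when every probe was tested on its own.

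Set side by side, the T cell class had a median log2 difference of -6.02 with 14 of 19 tested genes called, the B cell class -4.55 with 4 of 9, and the pan-leukocyte class -6.80 with 7 of 7. Measured in Mixture alone, and so bound to be lower, were 11 T cell, 6 B cell and 6 pan-leukocyte genes. The counts of calls by class are therefore a description. The median of all tested genes was 0.44, and it was -4.98 among the 2035 genes measured only in Mixture. The histogram of all tested genes shows most of the lymphocyte genes far to the left of that median, while Cd8b1 and the dim Rag2 and Ikzf3 lie near the bulk of all genes. With dim values raised to the lowest measured signal, the class medians were -5.13, -4.16 and -5.16, and under normexp background correction they were -3.22, -1.89 and -2.31. In the separate lines, again with dim values raised, the median of the T cell genes was -5.14 in NSEB5-2C, -5.26 in NS195R and -5.37 in NS21. The median of the B cell genes was -4.05 in NSEB5-2C, -4.37 in NS195R and -2.24 in NS21. Medians of 9 genes rest on single genes. The B cell class value of -4.55 was that of Blnk (SE 4.47), and the NS21 value was that of Cr2. Blnk itself, measured by a single spot per array, stood at -4.44 in NSEB5-2C, -8.40 in NS195R and 0.37 in NS21. On the same values, 33 of the 37 genes were at least 1.5-fold lower than Mixture in every line, beside 21.8% of all tested genes. The exceptions were Cd8b1 and Blnk, whose NS21 values lay above Mixture, and the dim Rag2 and Ikzf3.

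**Figure D3:**
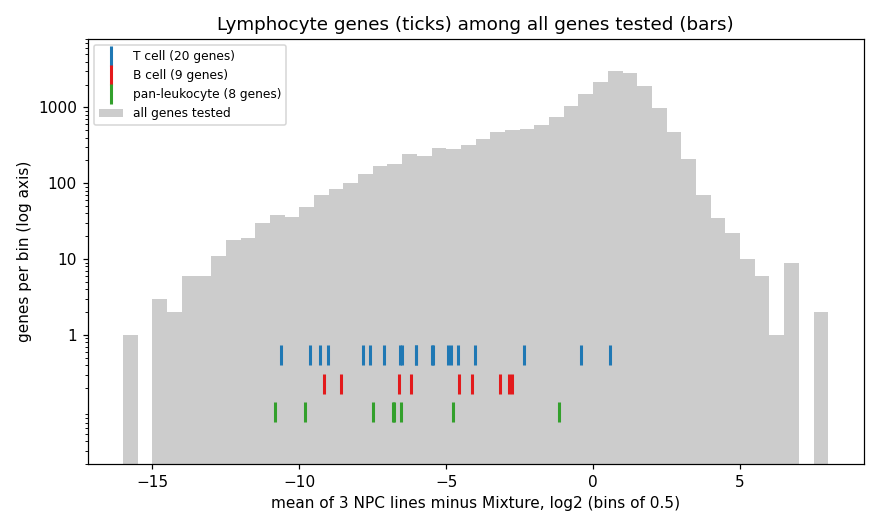
Number of tested genes (log axis) by the difference of the mean of the 3 NPC lines from Mixture in bins of 0.5 (log2), with ticks at the 20 T cell, 9 B cell and 8 pan-leukocyte genes. The median of all tested genes was 0.44 and the class medians were -6.02, -4.55 and -6.80.

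Between 0 and 3 lymphocyte genes set a given line apart from both others. With dim values raised, NS21 exceeded each other line by at least 2-fold in 2 of the 37 genes (Lck and Blnk), beside 7.3% of all tested genes. NS195R was so in 3 (Cd8a, Dntt and Cd79b), beside 10.3%, and NSEB5-2C in 0, beside 5.61%. NS21 fell short of each other line by at least 2-fold in 1 gene (Bcl11b), beside 4.06%. NS195R did so in 2 (Lck and Blnk), beside 5.88%, and NSEB5-2C in 0, beside 6.3%. The counts were close to or below the shares of all genes, and the 23 genes measured only in Mixture, like the dim Rag2 and Ikzf3, could not set a line apart because their raised values are nearly equal. These shares describe the lines and were not tested.

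Of the detections in a single line, 6 rested on 1 spot. They were Cd8a at 13.4, Dntt at 11.0, Cd79b at 6.89 and a second Rag1 probe at 3.13 in NS195R, with Cd2 at 5.10 and Ms4a1 at 5.75 in NSEB5-2C. The other probes of Cd8a, Dntt, Rag1 and Ms4a1 were at background in those lines. How often a stray spot occurs can be read from the probes spotted 10 times. Among such probes with at most 2 copies well above background, 21 of 860 spots (2.44%) in NSEB5-2C, 28 of 790 (3.54%) in NS195R and 18 of 870 (2.07%) in NS21 were well above background, against 18 of 500 (3.60%) in Mixture. The part of such spots in the single-line values was not tested.

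The lymphocyte genes spotted 10 times were Cd28, Cd4, Cd8a, Ptprc, Rag1 and Rag2. The plot of their single spots shows bright strays in the lines for 4 of them, all removed by the outlier flags. Cd8a had a stray of 13.9 in NS21 beside a median of 0.782 over its copies, and strays up to 11.0 in NSEB5-2C beside a median of 0.741. Ptprc had 1 of 8.97 in NS195R beside a median of 0.663. A probe spotted once has no copies to set a stray apart.

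**Figure D4:**
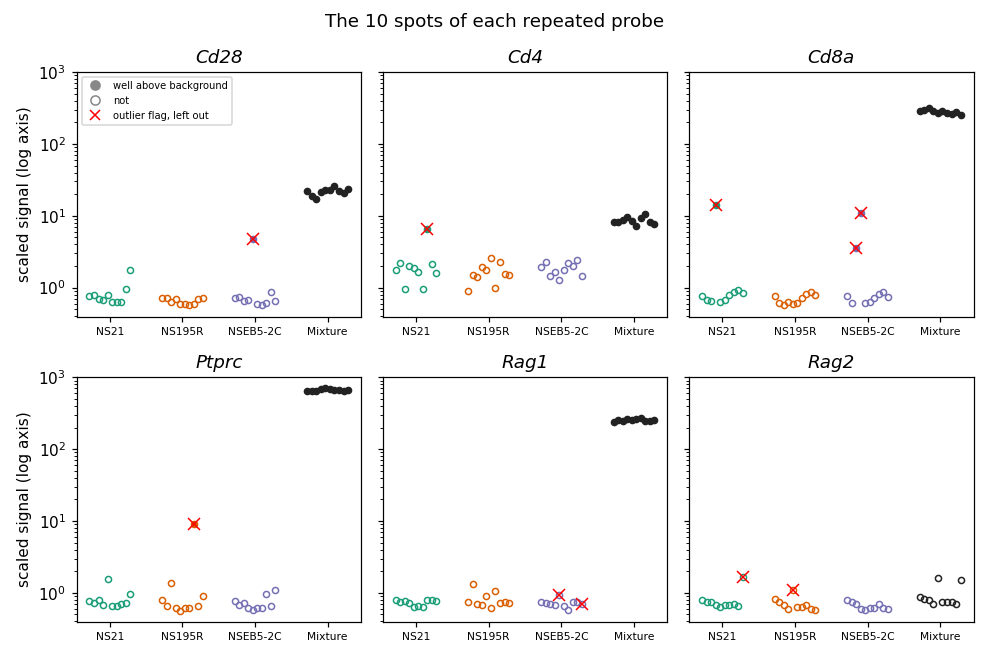
Scaled signal (log axis) of each of the 10 spots of the repeated probes of Cd28, Cd4, Cd8a, Ptprc, Rag1 and Rag2 on the NS21, NS195R, NSEB5-2C and Mixture arrays, filled where the spot was well above background, with crosses on spots left out by an outlier flag. The Cd8a copies had medians of 0.741 in NSEB5-2C, 0.679 in NS195R and 0.782 in NS21, against 279.6 in Mixture.

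Other genes of the same pathways, listed by function, followed the lymphocyte genes in part. Of 25 further T cell genes, 12 fell and 0 rose in the limma test (median log2 difference -5.04). Well above background were 9 in NSEB5-2C, 9 in NS195R and 7 in NS21, against 24 in Mixture. Of the 25, 12 were measured in Mixture alone and had to be lower, so the counts of these lists are a description. Among all tested genes 8.91% were called lower, and 74.8% among those measured only in Mixture. Among those that fell, the gut-homing chemokine receptor gene Ccr9 was at least 104-fold lower and the adaptor gene Fyb at least 178-fold lower. Cd247, which encodes the zeta chain of the T cell receptor complex, was at least 66.7-fold lower, and Sh2d1a, a signalling adaptor gene, at least 48.5-fold lower. Ctla4, an inhibitory receptor gene, was dim on every array.

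Of 23 further B cell genes, 13 fell and 0 rose (median -3.91), and 14 were measured in Mixture alone and had to be lower. Well above background were 5 in NSEB5-2C, 7 in NS195R and 3 in NS21, against 22 in Mixture. Fcmr, the IgM Fc receptor gene, was at least 71.6-fold lower. The coreceptor gene Cd72 was at least 45.0-fold and the chemokine receptor gene Cxcr5 at least 29.1-fold lower. Irf8, a transcription factor gene of B and myeloid cells, had 2.89 in NSEB5-2C, 6.29 in NS195R and 2.69 in NS21, against 868 in Mixture, and fell by 7.89 on the log2 scale. Of 6 plasma cell genes, 2 fell: Jchain, the joining chain gene of secreted antibodies, was at least 629-fold lower and Tnfrsf17 at least 7.03-fold lower. Both were measured in Mixture alone. Sdc1, a proteoglycan gene that many epithelia also use, had 706 in NSEB5-2C, 296 in NS195R and 521 in NS21, against 298 in Mixture, and did not pass the test.

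Of 21 further pan-leukocyte genes found on the arrays, 9 fell and 0 rose (median -6.04), and 8 were measured in Mixture alone. The small GTPase gene Rac2 was at least 351-fold lower and the cortactin relative Hcls1 at least 382-fold lower. The adaptor gene Sash3 was at least 90.5-fold and the exchange factor gene Vav1 at least 69.1-fold lower. In this list 7 genes were well above background in NSEB5-2C, 8 in NS195R and 8 in NS21, against 21 in Mixture.

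Genes of related function that many cell types use did not follow the lymphocyte genes. The list for V(D)J recombination holds genes that join or process the DNA ends after RAG cutting, such as Prkdc, Lig4 and Xrcc5, and the genes Hmgb1 and Hmgb2 of proteins that help RAG to bind and cut. All 12 were well above background on all 4 arrays, with 0 called lower or higher and a median log2 difference of 0.88. Prkdc, the DNA-dependent kinase gene, had 102 in NSEB5-2C, 91.2 in NS195R and 84.8 in NS21, against 31.7 in Mixture (log2 difference 1.54, SE 0.36, limma adjusted p = 0.101). Of 23 paralogs of the lymphocyte genes, 1 fell (Fgr, a SRC family kinase gene of myeloid cells, at least 28.6-fold lower) and the median was 0.48. Between 18 and 19 of these paralogs were well above background in each line, against 22 in Mixture.

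Single paralogs nevertheless lay below Mixture. Syk, the relative of Zap70 that acts upstream of BLNK, had 5.78 in NSEB5-2C, 49.3 in NS195R and 1.21 in NS21, against 99.8 in Mixture. It did not pass the limma test, and it did not follow the order of the lines seen for Blnk. Pou2f2, which encodes a partner of the POU2AF1 protein, was at least 4.22-fold lower without passing the test.

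Markers of other cells that the pooled tissues hold were lower to differing extents. Of 9 natural killer cell markers 5 fell, with summed signals of 13.8 to 26.8 in the lines and 1277 in Mixture. Of 15 macrophage and neutrophil markers 13 fell, with sums of 43.2 to 129.7 in the lines and 33603 in Mixture. Of 8 erythroid markers 7 fell (43.2 to 71.8, against 42497 in Mixture), and of 7 thymic epithelium markers 2 fell (191 to 2481, against 6095 in Mixture). Measured in Mixture alone, and so bound to be lower, were 6 natural killer, 8 macrophage and neutrophil, 5 erythroid and 4 thymic epithelium markers. The granzyme gene Gzma was at least 121-fold lower, the C1q subunit gene C1qc at least 425-fold lower, the heme synthesis gene Alas2 at least 961-fold lower and the keratin gene Krt5 at least 713-fold lower. Dim in all 3 lines were, among others, the macrophage markers Csf1r and Adgre1, the natural killer markers Ncr1 and Klrd1, the erythroid marker Rhag, and Foxn1 and Aire of the thymic epithelium. Other markers, picked after their values were seen, were well above background in all 3 lines, namely Cd68 and C1qb of macrophages, the erythroid markers Hba-a1 and Epor and the thymic chemokine gene Ccl25, and of these C1qb and Hba-a1 fell. The keratin gene Krt8, which many epithelia use, had 254 in NSEB5-2C, 1.48 in NS195R and 2140 in NS21, against 2613 in Mixture, and did not pass the test. The natural killer marker Eomes had 20.7 in NSEB5-2C, 1.20 in NS195R and 7.49 in NS21, against 7.79 in Mixture, and did not pass either. The part of these cell types in the values of shared genes such as Ptprc and Coro1a was not tested. The bar chart of gene lists shows the detection of each list by array.

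**Figure D5:**
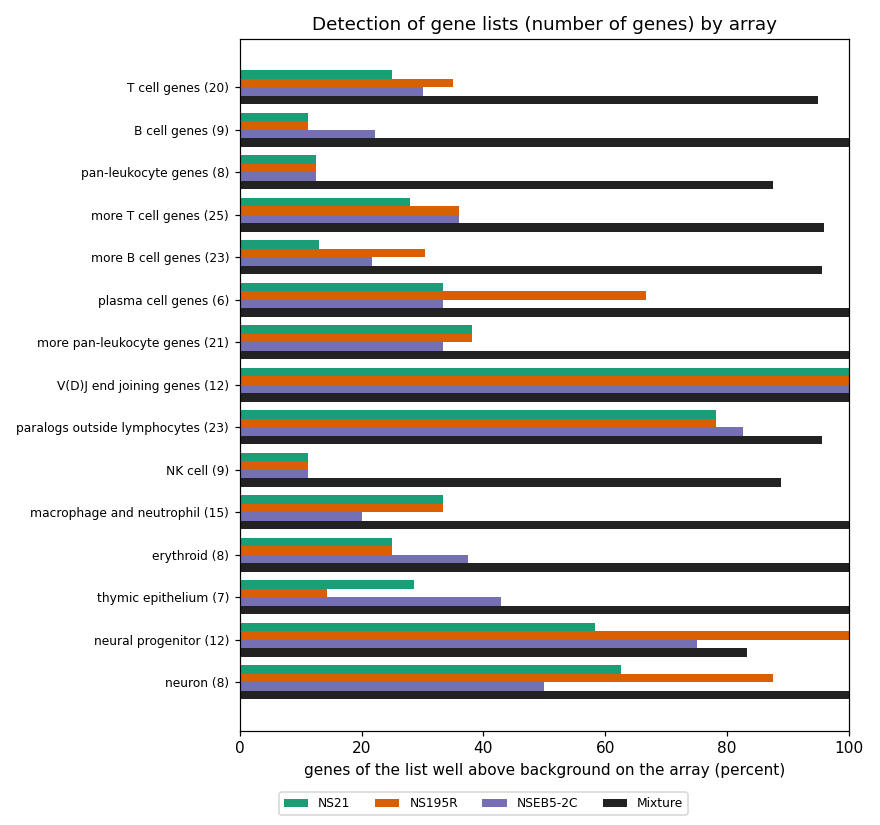
Share of the genes of each list (percent, number of genes in brackets) that were well above background on the NS21, NS195R, NSEB5-2C and Mixture arrays. T cell genes stood at 30.0% in NSEB5-2C, 35% in NS195R and 25% in NS21, against 95% in Mixture, and all 12 genes of the V(D)J end joining list, Hmgb1 and Hmgb2 included, were well above background on every array.

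Promoter sequences in the RefSeq table matched 26 of the 37 genes, with 34 windows, some of which belong to 1 gene and overlap. An ETS motif (CAGGAAG, either strand) stood in 12 of the 34 windows (35.3%), where 10.8% of all 32851 windows held it. These windows belonged to 10 genes, among them Cd3e, Lck, Zap70, Rag1, Cd79a, Ptprc, Coro1a and Ikzf1. An E-box (CAGGTG) stood in 13 windows (38.2%), beside 17.2% of all windows. A RUNX motif (TGTGGT) stood in 14.7%, beside 14.0% of all windows.

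The octamer stood in 1 window, that of Blnk shown above, beside 1.60% of all windows. GC boxes (GGGCGG) stood in 20.6% of the lymphocyte windows, beside 32.7%, and the TATA letters (TATAAA) in 5.88%, beside 12.4%. The median ratio of observed to expected CpG was 0.24 in the lymphocyte windows and 0.37 in all windows, at a median GC content of 54.8% and 52.4%. These shares describe the windows and were not tested.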

How the data were processed

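Total RNA of 3 NPC lines and of Mixture was labelled with Cy3 from 0.25 ug each, per the labels' protocols. Per the file headers, Feature Extraction 9.5.3.1 of Agilent produced the deposited intensity of each spot as a background-subtracted processed signal, with quality flags. The deposited value table held the same intensity. The 4 arrays shared 1 slide and 1 scan, so no batch could be tested.

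The log2 of the processed signal was set relative to percentile 75 of its array, taken over 43379 spots that are no controls. Non-uniform spots and population outliers were left out, and a mean was taken over the 10 copies of 245 repeated probes. A probe counted as well above background where most of its unflagged copies were. Probes took current symbols from a RefSeq gene table (GRCm38.p6), through the probe's RefSeq transcript in 22951 cases, another listed transcript in 131, a symbol in 6582 and a synonym in 3073, while 8437 kept the file's name. The probe with the highest mean represented a gene and was tested if well above background on at least 1 array. Limma 3.58.1 in R 4.3.3 (lmFit, eBayes, two-sided, 2 residual and 1.33 prior degrees of freedom, threshold 0.05) compared the NPC lines with Mixture, whose single array was assumed to vary like the lines. The fit was tested on simulated data.

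The lymphocyte genes, further lists and tests were chosen with earlier results of these data known. Any of the 37 genes could be named. From each further list, up to 4 called genes with the largest difference were named, with up to 4 that differed at least 1.5-fold against the list's median. Alternatives covered background correction, scaling, filters, probe choice, the variance prior, flagged spots and single lines.

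The sources used here do not give the genome build of the probe positions. The further pan-leukocyte gene Evi2b and the erythroid gene Hbb-b1 were not found under those names. Promoter windows came from RefSeq, cut to the 250 bases before each start.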

Additional observations from a re-analysis of the deposited data

Results flagged for a closer look

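For 2 lymphocyte genes, lines lay on opposite sides of Mixture, and the difference between the lines was not tested because each line had 1 array. For Blnk the highest and lowest lines were 8.775 apart on the log2 scale, with NS21 at 0.37 above Mixture, NS195R at -8.40 and NSEB5-2C at -4.44, after dim values were raised to the lowest measured signal. For the kept probe of Cd8b1, which the array files place on chromosome 5, the lines spanned 1.30 on the log2 scale, with NS21 at 1.15 and NS195R at 0.75 above Mixture and NSEB5-2C at -0.15. The Cd8b1 probe on chromosome 6 had all 3 lines at background.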

How the results depend on the processing

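Without NPC replicate 1 (NS21), 2 (NS195R) or 3 (NSEB5-2C), lower calls, higher calls and lymphocyte genes called all numbered 0, with 1 residual degree of freedom. Over genes well above background on all arrays, lower calls, higher calls and lymphocyte genes called were also 0, with 5 lower at an unadjusted p and a T cell median of -5.44. The cause of these last counts was not tested. In the other settings 23 to 29 lymphocyte genes were called. Higher calls over all genes were 187, against 974 with normexp, 527 with quantile scaling, 525 without the filter and 473 with an intensity trend. Lower calls stayed within 1287 to 2340, against 1765. The 2340 come from testing every probe and are probes, 7.88% of those tested, whereas the 1765 are genes, 8.91% of those tested. Median scaling moved the median of all tested genes to 1.19, against 0.44. It gave medians of -5.26 for T cell and -6.05 for pan-leukocyte genes. Normexp gave -3.22 for T cell, -1.89 for B cell and -2.31 for pan-leukocyte genes, and raising dim values -5.13 for T cell and -5.16 for pan-leukocyte genes. Testing every probe gave -6.29 for pan-leukocyte genes. With the flag for signal above background in place of well above background, 18 genes were detected in NSEB5-2C, 20 in NS195R and 18 in NS21, against 36 in Mixture. Cd8b1 turned to -5.75 with the mean of its probes. Of the choices made after seeing the data, probes on the gene's chromosome turned Cd8b1 to -12.09, and the probe with the highest Mixture signal did the same and gave a T cell median of -6.54. Picking probes by their Mixture signal favours lower values. The 34 genes matched by the file's own name gave a pan-leukocyte median of -7.16 and 23 calls. The deposited value table gave the same calls for all 35 tested genes. No paired analysis was possible because the design pairs no NPC line with the single Mixture array. Dim NPC values sit near the scanner's floor with little spread, so the standard errors of genes measured only in Mixture describe background.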
